A study of Homo sapiens and Mus musculus with 20 samples.

Results

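The class I antigen presentation genes examined here were HLA-B, HLA-C, HLA-E, B2M, TAP1, TAPBP, PSMB8, NLRC5 and CIITA. Their members are the regions of accessible chromatin that lay in the body of each of these 9 genes or within 10 kb on both sides, taken from GENCODE genes on the primary chromosomes of GRCh38. The peak lists of 12 ATAC-seq libraries were merged into 252173 regions, and 68 of them met this rule. Of the 68 regions, 28 had a peak in all 12 libraries, and 4 lay in the windows of both PSMB8 and TAP1, which are neighbours on chromosome 6.

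ATAC-seq measures where Tn5 transposase can insert adapters into chromatin, and the study used it to ask how the bacterial fermentation products propionate and butyrate alter accessibility in colorectal cancer cells. All libraries came from SW480, an established human colorectal adenocarcinoma line, with 50000 viable cells in each Omni-ATAC reaction. In the propionate experiment, 3 libraries from cells given 10 mM sodium propionate (NaPr) were set against 3 libraries at 0 mM. In the butyrate experiment, 3 libraries from cells given 1 mM sodium butyrate (NaBu) were set against 3 untreated libraries of their own, with treatment lasting 12 to 16 h in both experiments.

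The 2 experiments carry different dates in the labels and used different doses, so their values are given side by side and were not tested against each other. The labels do not say whether replicates came from separate cultures, and p-values then measure only the spread between these libraries. SW480 is a single line, and accessibility is not transcription. At the starts of 6 of 6 epithelial marker genes, among them EPCAM and KRT8, a peak was listed in all 12 libraries. The leukocyte marker genes PTPRC, CD3E and SPI1 had no peak at their starts in any library. Of the 4 fibroblast marker genes, COL1A1 and COL1A2 had a start peak in 12 libraries, PDGFRA in 5 and DCN in 0.

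Class I molecules display peptides from inside the cell to CD8+ T cells, and each consists of a heavy chain bound to beta-2-microglobulin. Peptides are cut by the proteasome, pumped into the endoplasmic reticulum by the TAP transporter and fitted into the groove with the help of tapasin. Interferon and NF-kB signalling induce many of these genes, and NLRC5 acts as a coactivator at a shared promoter module in which the X2 box resembles a cAMP response element and the Y box is an inverted CCAAT. CIITA is the related coactivator of class II genes, can also act at class I promoters, and is transcribed from several alternative promoters.

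The sequences at the HLA-B, HLA-C and B2M starts hold letters of this module, so the 250 bases before the RefSeq start (GRCh38.p14, read 5′ to 3′ on the coding strand) are printed for 4 genes. Capitals mark matches on either strand to CCAAT (the Y box), to TGACG (the core of a cAMP response element), to GAAANNGAA (interferon-stimulated response element), to TTCNNNGAA (interferon-gamma activated site) or to GGGATTCCC (NF-kB). RefSeq promoters were matched for 6 of the 9 genes, HLA-B, HLA-C, B2M, TAP1, TAPBP and PSMB8.
HLA-B, chr6:31357180-31357429, minus strand: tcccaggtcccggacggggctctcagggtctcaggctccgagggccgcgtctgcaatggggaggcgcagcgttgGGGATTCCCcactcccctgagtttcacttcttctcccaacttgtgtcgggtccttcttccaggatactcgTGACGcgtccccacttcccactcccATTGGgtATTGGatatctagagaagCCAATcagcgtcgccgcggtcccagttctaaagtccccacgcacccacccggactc
HLA-C, chr6:31272093-31272342, minus strand: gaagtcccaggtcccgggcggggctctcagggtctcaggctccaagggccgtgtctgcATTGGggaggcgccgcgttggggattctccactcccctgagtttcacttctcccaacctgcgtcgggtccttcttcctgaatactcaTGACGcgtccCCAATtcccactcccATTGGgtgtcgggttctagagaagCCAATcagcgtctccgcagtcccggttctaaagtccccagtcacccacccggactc
B2M, chr15:44711267-44711516, plus strand: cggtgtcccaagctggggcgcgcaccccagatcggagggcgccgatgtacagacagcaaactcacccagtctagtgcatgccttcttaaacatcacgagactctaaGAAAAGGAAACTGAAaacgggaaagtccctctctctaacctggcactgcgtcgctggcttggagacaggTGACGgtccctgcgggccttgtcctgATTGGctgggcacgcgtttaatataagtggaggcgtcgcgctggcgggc
TAPBP, chr6:33314079-33314328, minus strand: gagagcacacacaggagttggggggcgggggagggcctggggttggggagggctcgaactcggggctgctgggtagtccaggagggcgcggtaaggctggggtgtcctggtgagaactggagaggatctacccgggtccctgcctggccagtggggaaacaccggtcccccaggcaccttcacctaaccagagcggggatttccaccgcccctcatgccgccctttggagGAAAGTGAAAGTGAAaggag

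TGACG began 106 bases before the start in HLA-B, 105 in HLA-C and 75 in B2M. CCAAT matches began 81, 74 and 56 bases before the start in HLA-B, and 192, 95, 80 and 56 bases before it in HLA-C. The B2M match began 49 bases before the start. The inverted form, as in the Y box, stood at 81 and 74 in HLA-B, 192 and 80 in HLA-C and 49 in B2M. The other matches in HLA-B and HLA-C read forward. HLA-B alone of these promoters held GGGATTCCC, 176 bases before its start. Overlapping pairs of GAAANNGAA stood 144 and 138 bases before the B2M start, 20 and 14 before the TAPBP start and 133 and 127 before that of TAP1, the gene of one TAP subunit. Among the 35116 promoters of 300 bases in the table, 34.6% held CCAAT, 24.6% TGACG, 8.11% GAAANNGAA, 7.66% TTCNNNGAA and 0.384% GGGATTCCC. A match describes the letters in these windows and says nothing of whether a factor was bound.

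Accessibility is given as a percentile rank. The highest −log10 p among a library's peaks in a region was ranked among all regions tested in that experiment, so that 100 is the strongest region of a library and 0 means that no peak was listed. Listed peaks rank above all unlisted regions, so the weakest listed peak of a library stood at 20.5 to 26.1 with NaPr and at 15.5 to 23.5 with NaBu. A change from or to 0 includes this step and does not measure accessibility on a continuous scale. A rank does not move with a change that all peaks of a library share. Regions with a peak in at least 2 of the 6 libraries of an experiment were tested, and a change is treated minus untreated, in percentile points with its standard error (SE). Adjusted p-values are Benjamini-Hochberg values over all tested regions from limma, two-sided, and a region was called below 0.05. The lists held 112145 to 144398 peak intervals per library with NaPr and 108442 to 128955 with NaBu. Their weakest listed peak had a −log10 p of 3.37 to 6.53 in the first experiment and of 7.25 to 9.38 in the second, and a missing peak means that none passed this limit.

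With NaPr, 56 member regions were tested, of which 1 was called higher and 4 lower, or 8.93%. Across all 124067 regions tested in that experiment, 8.51% were called, 4.54% higher and 3.97% lower. With NaBu, 43 member regions were tested, of which 7 were called higher and 3 lower, or 23.3%. The background there was 36.9% of 123730 regions, 19.7% higher and 17.2% lower. The median change over the tested members was 0.43 points with NaPr and 0.20 with NaBu, and over all regions it was 0.02 and 0.70. The share of calls among members was thus near the background with NaPr and below it with NaBu.

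The split of calls by direction depended on the ranking. When regions were ranked only among those with a peak in the same library, 4 members were called higher and 1 lower with NaPr, and 11 higher and 2 lower with NaBu. The same ranking moved the split over all regions from 5632 higher and 4923 lower to 6131 and 3419 with NaPr, and from 24370 and 21312 to 28189 and 16845 with NaBu. On log2 fold enrichment, NaPr calls over all regions were 1445 higher and 133 lower. The NaPr calls also depended on every library. Without untreated replicate 1, 2 or 3 the calls over all regions numbered 3718, 925 and 604, and without any of the 3 treated replicates there were 0. None of the 5 called members remained in any of these 6 fits, and 1 other member was called without untreated replicate 1, the region 15311 bp downstream of the B2M start. In that fit this region was listed only in treated libraries.

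**Figure D1:**
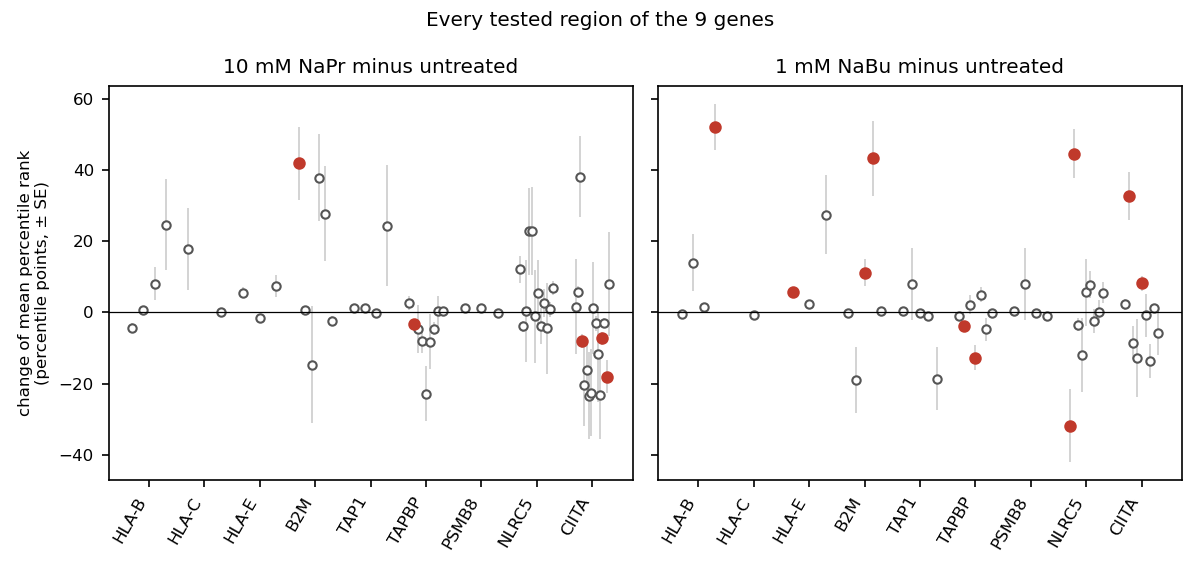
Change of mean percentile rank (treated minus untreated, percentile points, bars ± SE, 3 libraries against 3) for each tested region, with regions of a gene in order of position, red where called in limma and open where not. With NaPr 1 filled point lies above 0 and 4 below, and with NaBu 7 lie above and 3 below. The regions that PSMB8 and TAP1 share are drawn under both genes.

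The start regions of the heavy chain genes ranked high in both experiments, and none of them was called. The region over the HLA-B start (chr6:31356209-31357788, with its summit 84 bp upstream) ranked 88.6, 88.8 and 85.9 in the untreated and 84.0, 82.1 and 84.4 in the NaPr libraries. The treated ranks were all lower and the groups did not overlap, but the change of -4.23 ± 1.35 (SE) was not called (limma adjusted p = 0.081). In the NaBu experiment the same region ranked 88.2, 87.8 and 87.8 untreated and 87.4, 88.5 and 87.1 treated, and these ranges overlapped (change -0.29 ± 0.78).

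HLA-C, a second classical heavy chain gene, had its start region at chr6:31271103-31272693. It ranked 90.6, 94.0 and 92.8 untreated against 92.9, 91.9 and 93.0 with NaPr, and 93.4, 92.8 and 94.6 against 91.5, 94.3 and 93.4 with NaBu. The groups overlapped in both experiments, with changes of 0.09 ± 0.99 and -0.57 ± 0.86 points. HLA-B and HLA-C are similar in sequence, so some reads may have been lost or placed on the wrong gene, and their values are uncertain to that extent.

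HLA-E encodes a nonclassical heavy chain that presents leader peptides of other class I chains to NK cell receptors. Its start region (chr6:30489091-30490725) ranked 87.4, 88.5 and 87.5 untreated and 89.4, 89.5 and 91.6 with NaBu. All treated libraries were above all untreated libraries, and the change of 2.38 ± 0.87 was not called (limma adjusted p = 0.0657). With NaPr the change was -1.58 ± 1.26 and the groups overlapped.

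B2M, which encodes the light chain of every class I molecule, had the highest start region of the 9 genes (chr15:44710939-44712222). It ranked between 95.0 and 98.8 in the 12 libraries. The changes were 0.78 ± 0.78 with NaPr and -0.04 ± 0.42 with NaBu, and the groups overlapped in both experiments.

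TAP1 and PSMB8, an interferon-inducible proteasome subunit, lie side by side, and no region of either gene was called. The TAP1 start region (chr6:32852759-32854637), which also covers the start of PSMB9 on the other strand, ranked 90.1 to 91.7 in the NaPr and 94.1 to 96.1 in the NaBu experiment. The region over the PSMB8 start (chr6:32843716-32845144) ranked 90.8 to 93.5 and 93.4 to 94.4. The largest changes over their 6 and 4 regions were at weak peaks, such as 24.4 ± 17.0 points with NaPr and -18.6 ± 8.90 with NaBu at chr6:32861205-32861598, 7544 bp upstream of the TAP1 start, where each experiment had libraries with no peak.

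TAPBP, the gene of tapasin, had 1 call among 9 tested regions with NaPr and 2 among 7 with NaBu, all of them lower. These shares were 11.1% and 28.6%, where 8.51% and 36.9% of all tested regions were called. Its start region (chr6:33313219-33314369, with its summit in coding sequence 277 bp downstream of the start) held 24 of the 26 annotated transcript starts. With NaBu it ranked 67.5, 69.3 and 62.9 untreated and 51.9, 53.6 and 56.1 treated. The groups did not overlap, and the change of -12.69 ± 3.48 was called (limma adjusted p = 0.0241). It was no longer called without untreated replicate 1 or 2, with a highest adjusted p of 0.0693 over the 6 fits that left out 1 library. The call was also lost with the replicate number as a block (adjusted p = 0.0533) and when regions were ranked only among those with a peak in the same library (adjusted p = 0.0645). With NaPr it ranked 69.9, 74.2 and 76.6 untreated and 66.3, 62.3 and 67.7 treated, again without overlap, with a change of -8.13 ± 3.30 (limma adjusted p = 0.158).

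The region at the 3′ end of TAPBP (chr6:33297475-33300301, with its summit in the 3′ UTR, 14197 bp downstream of the start) was the single member region called in both experiments. It runs past the annotated end of TAPBP at 33299694, and its summit also lies in an exon of ENSG00000289100. Its change is therefore not assigned to TAPBP alone. In the NaPr experiment it ranked 97.8, 97.9 and 97.5 untreated and 94.9, 93.4 and 94.9 treated, a change of -3.32 ± 0.66 (limma adjusted p = 0.0202). In the NaBu experiment it ranked 96.2, 95.5 and 95.7 untreated and 90.6, 91.9 and 93.5 treated, a change of -3.80 ± 0.78 (limma adjusted p = 0.00782). All treated libraries were below all untreated ones in both. The NaPr call was lost in each of the 6 fits without 1 library, at adjusted p from 0.0562 to 0.076, and also with the replicate block or with regions made from the 6 lists of that experiment, and the NaBu call remained in all 6. Ranking by fold enrichment or testing log2 fold enrichment gave no call at either TAPBP region in either experiment.

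NLRC5, the class I transactivator, had its start region at chr16:56988516-56989961. It ranked 88.2, 91.2 and 91.0 untreated against 85.0, 89.6 and 84.1 with NaPr, and 86.7, 83.7 and 86.6 against 80.2, 86.0 and 80.3 with NaBu. The changes of -3.92 ± 1.58 and -3.51 ± 1.83 were not called (limma adjusted p = 0.156 and 0.161), and the groups overlapped in both.

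CIITA had the lowest ranks among the starts. The region over its canonical start (chr16:10877008-10878280) held 9 of its 20 annotated transcript starts. With NaBu no peak was listed in the 3 untreated libraries, and the treated libraries ranked 27.9, 26.5 and 43.7, a change of 32.69 ± 6.76 (limma adjusted p = 0.00807). The region entered this test through its treated libraries alone, so the direction was fixed by the filter and the call is a description. These peaks had a fold enrichment of 4.71, 4.57 and 5.66 over the local background and a −log10 p of 11.5, 12.4 and 18.4, where the weakest listed peak of the untreated libraries had 7.25 to 9.38. With NaPr the ranks were 0, 0 and 25.8 untreated and 43.3, 41.9 and 55.0 treated, and all treated libraries were above all untreated ones, with a change of 38.14 ± 11.40 (limma adjusted p = 0.0668). There too the region met the filter only through its treated libraries. No region lay within 1 kb of the annotated 5′ end of CIITA, which is further upstream.

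**Figure D2:**
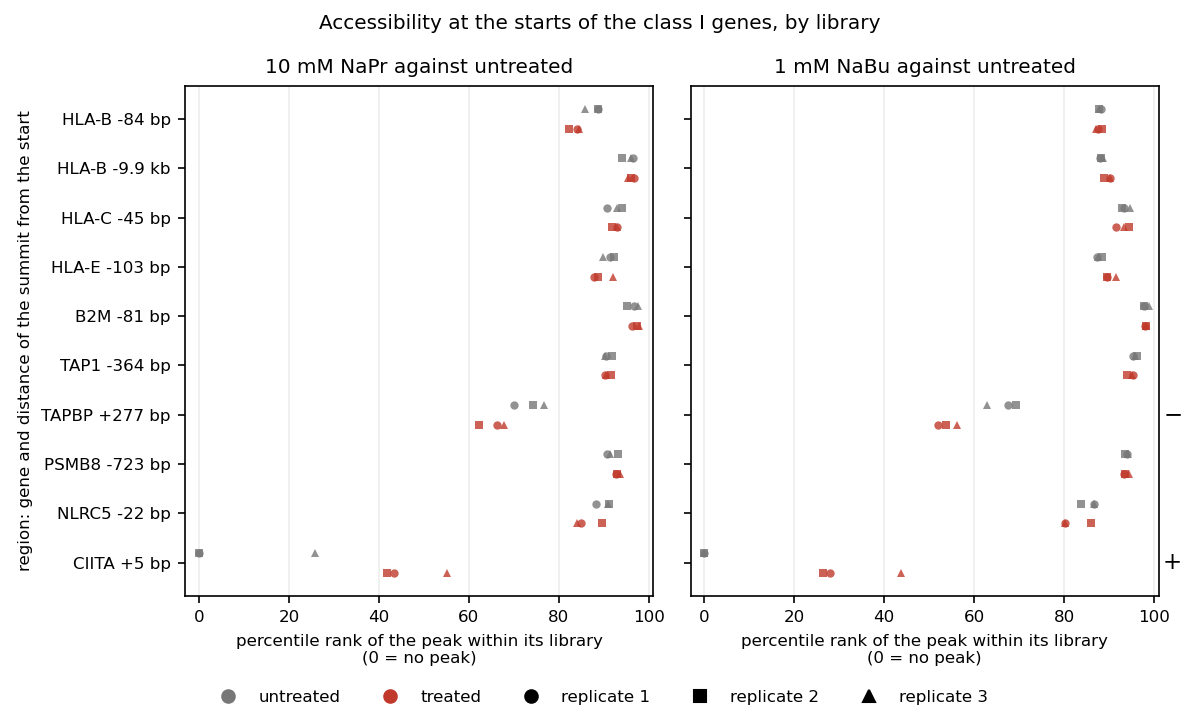
Percentile rank within its library (x axis, 0 where no peak was listed) of the 10 start regions, labelled by gene and distance of the summit from the canonical start, in untreated (grey) and treated (red) libraries. A plus or minus sign at the right edge marks a region called higher or lower in limma. Ranks stand between 80.2 and 98.8 at 8 of the 10 regions, and those of TAPBP and CIITA are lower.

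HLA-B has a second start region because its annotated 5′ end lies 9939 bp upstream of the canonical start, over the pseudogene DHFRP2 (chr6:31366729-31367533). Counting it, 10 start regions were tested in each experiment, and 9 of them had a peak in all 12 libraries. None of the 10 was called with NaPr, and 2 were called with NaBu, CIITA higher and TAPBP lower, where 8.51% and 36.9% of all tested regions were called. Over the other 8 the changes ran from -4.23 to 1.24 points with NaPr and from -3.51 to 2.38 with NaBu. Away from the starts, 5 of 46 tested regions were called with NaPr, or 10.9%, and 8 of 33 with NaBu, or 24.2%, which is near the first of these backgrounds and below the second.

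Regions listed in all 3 treated libraries and in no untreated library were found at 1 of 56 tested members with NaPr, or 1.79%, against a background of 2.95%. With NaBu there were 3 of 43, or 6.98%, against 6.41%. None showed the reverse, a pattern found at 1.5% of all tested regions with NaPr and 3.72% with NaBu. Such a region enters the test only through its treated libraries, so its direction was fixed by the filter, and its p-value and call are given as a description. The 3 NaBu regions were the CIITA start and a region each near HLA-B and NLRC5, and the NaPr region was near B2M. The sequence of 201 bases around the summit is printed for the 3 that lie outside exons, from the plus strand of GRCh38, with capitals for the motifs above and for TGANTCA, an AP-1 site added after the data were seen.
HLA-B distal region, chr6:31368574-31368774: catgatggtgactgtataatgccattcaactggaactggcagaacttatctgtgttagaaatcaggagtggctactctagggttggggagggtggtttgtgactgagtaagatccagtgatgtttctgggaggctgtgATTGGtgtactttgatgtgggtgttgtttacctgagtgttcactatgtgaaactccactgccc
NLRC5 upstream region, chr16:56985697-56985897: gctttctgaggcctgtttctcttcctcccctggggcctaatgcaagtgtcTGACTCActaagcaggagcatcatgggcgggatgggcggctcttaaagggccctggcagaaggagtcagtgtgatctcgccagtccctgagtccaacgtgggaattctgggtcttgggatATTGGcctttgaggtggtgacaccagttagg
B2M upstream region, chr15:44707468-44707668: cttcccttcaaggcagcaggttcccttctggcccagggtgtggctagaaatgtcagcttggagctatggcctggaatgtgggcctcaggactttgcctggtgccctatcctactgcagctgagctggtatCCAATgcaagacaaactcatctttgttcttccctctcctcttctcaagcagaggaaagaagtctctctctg

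Each of the 3 windows held 1 CCAAT, and the NLRC5 window also held 1 TGANTCA. In windows of the same length, CCAAT stood in 22.9% of all 164146 regions tested in at least 1 experiment and in 19 of the 60 tested members, and TGANTCA in 19.1% and in 10 of 60. GAAANNGAA stood in 5.41% and in 6 of 60, and of those 6 windows none was called higher and 1 was called lower, at CIITA with NaPr. TGACG stood in 9.94% of all tested regions, in 7 of the 10 start regions of the class I genes and in 6 of the 50 other tested members. In these windows the median G and C content was 56.2% over the tested members and 51.2% over all tested regions. The regions themselves had a median length of 735.5 bp against 592 bp.

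The HLA-B distal region (chr6:31368493-31368843, in an intron of a long noncoding transcript, 11495 bp upstream of the canonical start) ranked 0 in each untreated library and 41.2, 57.8 and 57.9 with NaBu. The change of 52.27 ± 6.41 was the largest rise among the members (limma adjusted p = 0.00116). In the NaPr experiment the region was listed without treatment, at ranks of 57.3, 70.9 and 57.1, and ranked 69.3, 71.8 and 68.6 with NaPr. Those groups overlapped, and the change of 8.10 ± 4.58 was not called.

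The NLRC5 upstream region (chr16:56985637-56986062, intergenic between CETP and NLRC5, 3760 bp upstream of the start) ranked 0 in each untreated library and 55.9, 34.3 and 43.9 with NaBu, a change of 44.71 ± 6.87 (limma adjusted p = 0.00261). With NaPr it ranked 54.8, 65.4 and 63.6 untreated and 73.1, 72.7 and 74.4 treated. All treated libraries were above the untreated ones there, and the change of 12.13 ± 3.85 was not called (limma adjusted p = 0.079).

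Another NLRC5 region, in an intron of the neighbouring gene CETP (chr16:56983484-56983875, 5990 bp upstream), ranked 54.2, 51.2 and 59.0 untreated and 43.7, 25.4 and 0 with NaBu. The groups did not overlap, and the change of -31.80 ± 10.35 was called (limma adjusted p = 0.045). It was called in 1 of the 6 fits without 1 library, with adjusted p of up to 0.12 in the others. Without any one of the 3 untreated libraries, treated replicate 2 or treated replicate 3 the call was lost, as it was when ranked by fold enrichment, with a peak in at least 1 library and in summit windows. In the NaPr experiment this region was not tested. The 12 NLRC5 regions tested with NaPr held no call, with changes from -4.40 to 22.92 points.

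The B2M upstream region (chr15:44707327-44707630, in an intron of PATL2, 3949 bp upstream of the start) was the 1 member called higher with NaPr. It ranked 0 in each untreated library and 40.8, 35.0 and 50.2 with NaPr, a change of 41.97 ± 10.28 (limma adjusted p = 0.0378). The peaks were weak, with a fold enrichment of 3.49, 3.14 and 4.32. Each of the 6 fits without 1 library lost the call (adjusted p from 0.0598 to 0.0838), as did 4 other alternatives, and in the NaBu experiment no library listed a peak there.

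Beyond the 3′ end of B2M, 2 intergenic regions near TRIM69 ranked higher with NaBu. The first (chr15:44726525-44726911, 15311 bp downstream of the B2M start) ranked 54.1, 64.7 and 61.2 untreated and 67.4, 74.4 and 71.9 treated, a change of 11.24 ± 3.70 (limma adjusted p = 0.0468). The second (chr15:44727065-44727293) ranked 0, 32.9 and 0 untreated and 62.6, 59.9 and 40.5 treated, a change of 43.35 ± 10.55 (limma adjusted p = 0.0151). The groups did not overlap at either region. The second region met the filter of at least 2 libraries only through its treated libraries, which favoured a rise. Its p-value and call are therefore given as a description. Each call was lost in 4 of the 6 fits without 1 library, for the first region without untreated replicate 1 or 3 or treated replicate 2 or 3 (adjusted p up to 0.134), and for the second without untreated replicate 1 or 3 or treated replicate 1 or 2 (up to 0.0646). Both calls were also lost when regions were ranked by fold enrichment, and the first was lost with regions that had a peak in at least 1 library (adjusted p = 0.0582) and with 12 libraries in the fit (adjusted p = 0.416). With NaPr the changes were 37.96 ± 12.23 and 27.85 ± 13.42 and were not called, and both regions met the filter there only through treated libraries.

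Upstream of HLA-E, an intergenic region (chr6:30480520-30482528, 7307 bp from the start) had similar values in both experiments. It ranked 86.0, 83.4 and 85.6 untreated and 90.9, 89.6 and 92.0 with NaBu, a change of 5.85 ± 1.05 (limma adjusted p = 0.00473). With NaPr it ranked 85.0, 82.6 and 86.7 untreated and 93.2, 88.9 and 89.0 treated, a change of 5.58 ± 1.55 (limma adjusted p = 0.0542). All treated libraries were above all untreated ones in both. With NaBu its fold enrichment was 20.2, 15.1 and 16.9 untreated and 19.3, 18.9 and 19.2 treated, which overlapped, and the NaBu call was lost when regions were ranked by fold enrichment or tested on its log2 value.

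CIITA had the most called regions of the 9 genes with NaPr, and all 3 were lower. It also had the most tested regions there, 16, of which 18.8% were called, against 8.51% of all tested regions. A region 1774 bp downstream of the canonical start (chr16:10878405-10879710), which holds 2 further transcript starts, ranked 92.0, 89.6 and 85.9 untreated and 77.2, 82.6 and 83.6 treated. The change of -8.02 ± 2.07 was called (limma adjusted p = 0.0442). With NaBu the same region ranked 55.5, 64.0 and 51.4 untreated and 46.0, 48.5 and 50.9 treated, also without overlap, and the change of -8.50 ± 4.70 was not called. The neighbouring regions over the canonical start and over these further starts had changes of opposite sign in each experiment. The canonical start region met the filter only through its treated libraries in both, which favoured its sign, and the contrast was not tested.

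Near its annotated 3′ end CIITA overlaps DEXI, a gene on the other strand, so a change there is not assigned to either gene. A region with its summit in UTRs of both genes (chr16:10941409-10942668) ranked 85.2, 82.4 and 82.6 untreated and 77.7, 76.3 and 74.6 with NaPr. The change was -7.20 ± 1.81 (limma adjusted p = 0.0405), and with NaBu it was -13.67 ± 4.68 (limma adjusted p = 0.0538). A region in an intron of CLEC16A (chr16:10946254-10946691) ranked 68.5, 67.0 and 69.7 untreated and 51.8, 49.4 and 49.9 with NaPr, a change of -18.05 ± 4.63 (limma adjusted p = 0.0432). The groups did not overlap with NaPr at either region. All 3 NaPr calls at CIITA were lost in each of the 6 fits without 1 library, with adjusted p between 0.0618 and 0.138, and with the replicate block (adjusted p up to 0.117), on log2 fold enrichment, with a peak in at least 1 library and when ranked only among listed peaks.

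With NaBu, a region in a CIITA intron (chr16:10918054-10919066, 41674 bp downstream) ranked 72.8, 71.5 and 78.5 untreated and 83.6, 80.3 and 83.5 treated. All treated libraries were higher, with a change of 8.16 ± 2.19 (limma adjusted p = 0.0221). The call was lost without untreated replicate 1 or 2 or treated replicate 1 or 3, at adjusted p of up to 0.0809, and on fold enrichment, ranked or as its log2 value, at up to 0.232. With NaPr this region ranked 87.8, 86.8 and 89.1 untreated and 79.7, 89.3 and 85.6 treated, and the change of -3.05 ± 2.14 was not called. It was the one region of opposite sign among the 12 that were called in at least 1 experiment and tested in both.

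**Figure D3:**
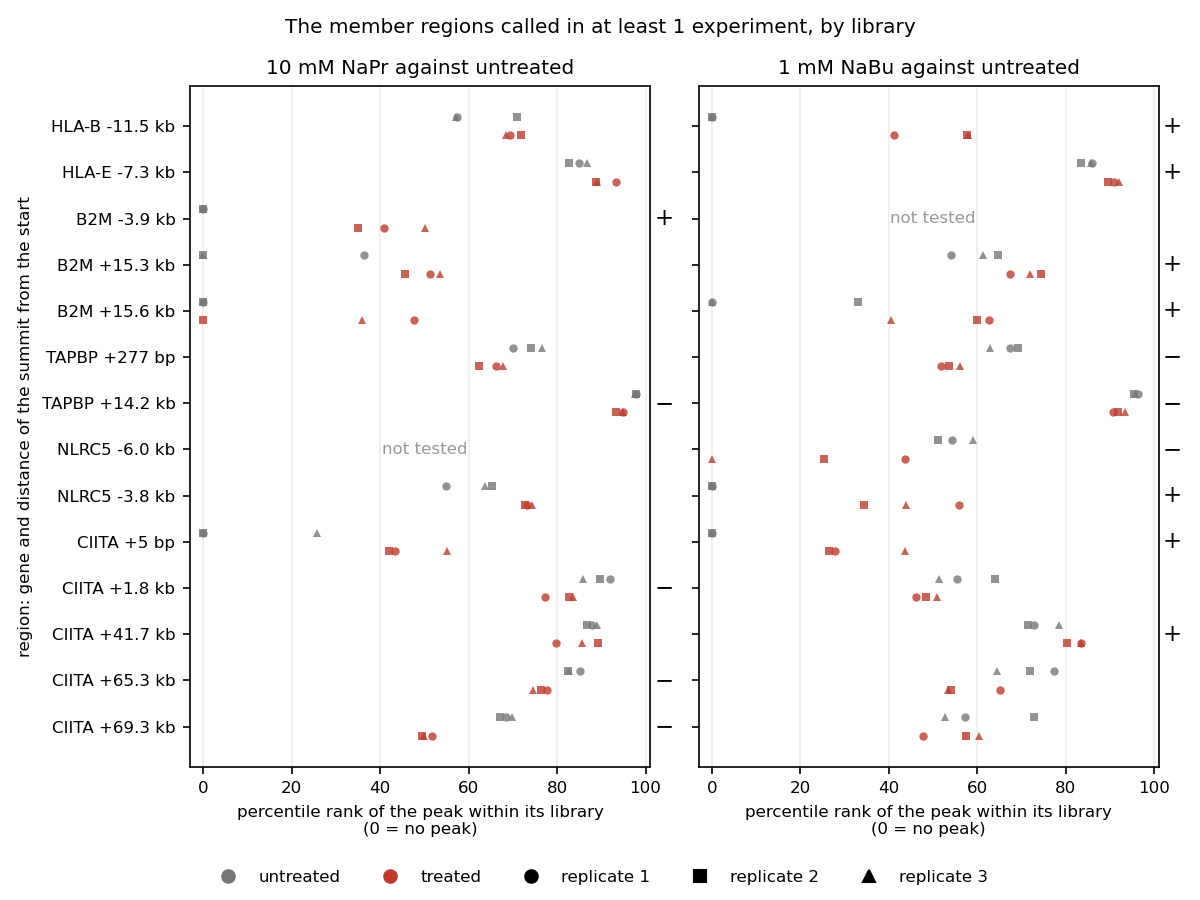
Percentile rank within its library (x axis, 0 where no peak was listed) of the 14 member regions called in at least 1 experiment, labelled by gene and distance of the summit from the canonical start, in untreated (grey) and treated (red) libraries. A plus or minus sign at the right edge marks a call in limma. The TAPBP region 14.2 kb downstream carries a minus in both panels, and the other 13 carry a sign in 1 panel.

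**Figure D4:**
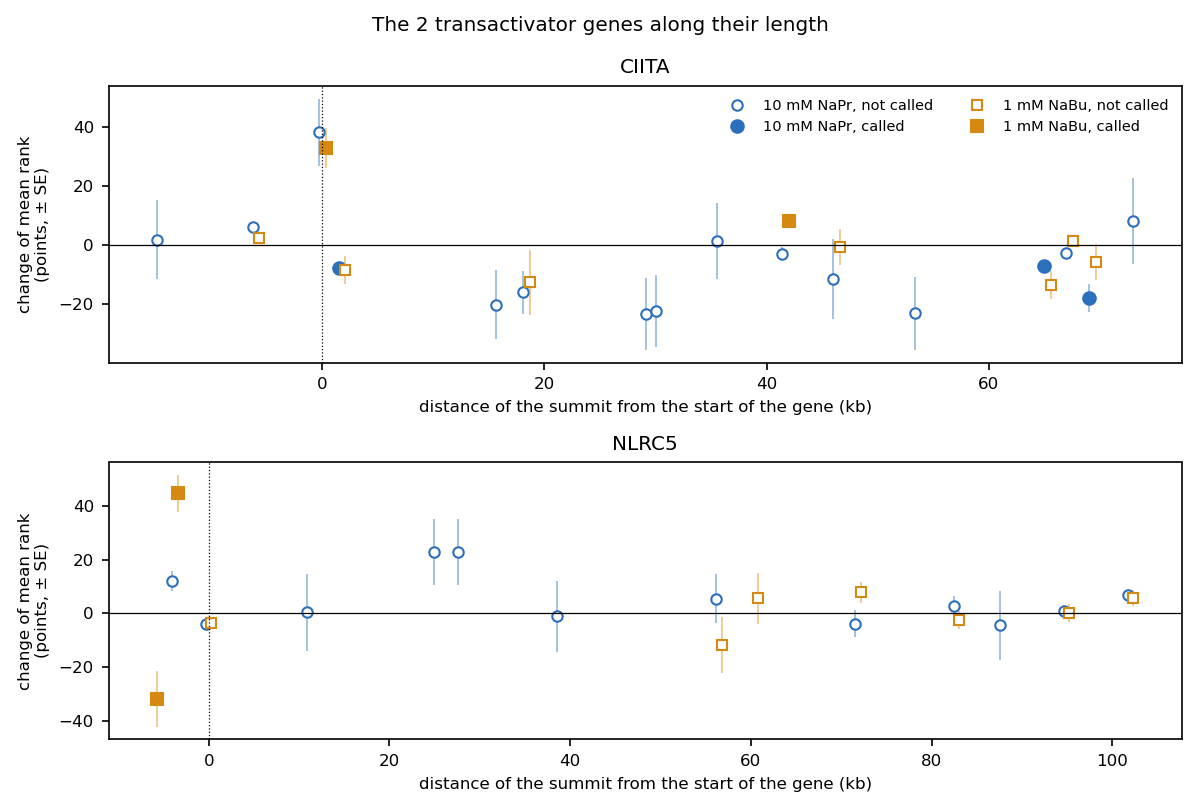
Change of mean percentile rank (treated minus untreated, percentile points, bars ± SE) of each tested region against the distance of its summit from the canonical start of CIITA (top) and NLRC5 (bottom), in kb, filled where called in limma. NaPr and NaBu points of a region are drawn slightly to the left and right of its position. At CIITA the points at the start lie above 0 and those 1774 bp downstream below it in both experiments. The start region met the filter only through its treated libraries, which favoured a positive change.

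Of the 12 member regions called in at least 1 experiment and tested in both, 11 changed in the same direction with NaPr and with NaBu, which the calls themselves favour. Among all 34476 regions of that kind the share was 82.2%. Of all 39 member regions tested in both experiments, 23 had the same sign, against 70.2% of 83651 regions. The doses were 10 mM for NaPr and 1 mM for NaBu, and no difference between the compounds was tested.

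Other genes of the pathway were taken from lists of 14 loading and processing genes, 13 regulators and 11 class II genes, with 281 regions. Windows of these genes overlap in places. A region in several lists is counted in each, and regions of PSMB8 and TAP1 in the TAP2 or PSMB9 windows were kept. With NaPr, 5 of 172 tested regions were called higher and 5 lower. With NaBu, 23 of 165 were called higher and 28 lower. The shares called in either direction were 5.81% and 30.9%, below the 8.51% and 36.9% over all tested regions. By list, NaPr gave 2 higher and 1 lower of 52 for loading and processing, 2 and 4 of 85 for regulators, and 1 and 0 of 37 for class II genes. NaBu gave 5 and 9 of 49, 14 and 16 of 88, and 6 and 3 of 30. The list medians ran from -0.43 to 1.36 points with NaPr and from -1.64 to 5.03 with NaBu, where class II genes had the highest.

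**Figure D5:**
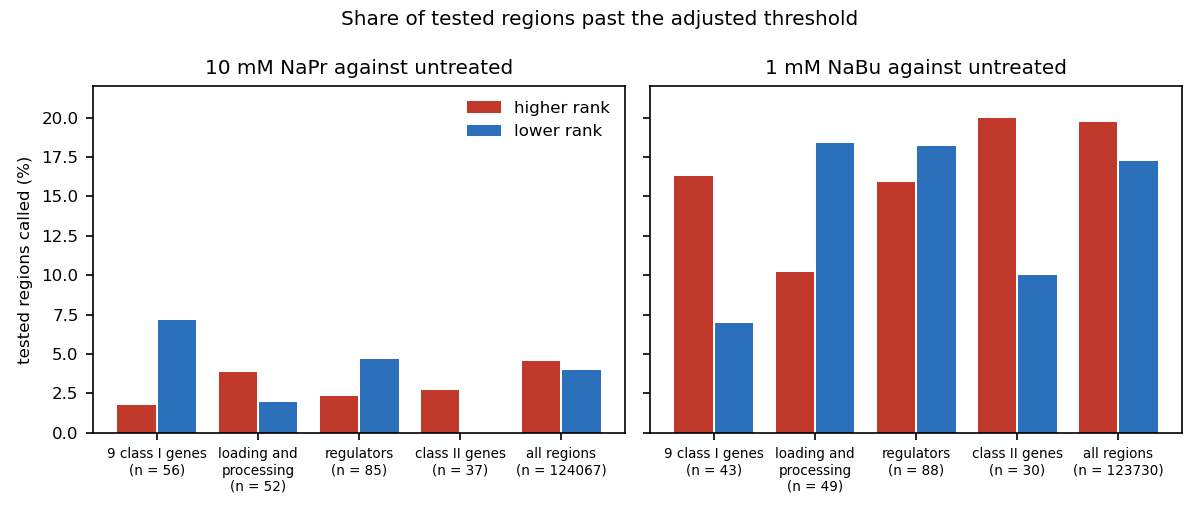
Percent of tested regions called higher (red) or lower (blue) in limma for the 9 class I genes, the 3 lists of other pathway genes and all regions, with the number tested under each bar. With NaPr all regions stand at 4.54% higher and 3.97% lower, and with NaBu at 19.7% and 17.2%. The sets share some regions, such as those of PSMB8 and TAP1 in the TAP2 or PSMB9 windows.

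Among the called regions of the other pathway genes, the largest falls with NaPr were in introns of JAK1, IRF1 and NFYC, which encode an interferon receptor kinase, an interferon-induced transcription factor and a subunit of the factor that binds CCAAT. The JAK1 region (chr1:65020815-65021261) ranked 65.7, 61.2 and 55.2 untreated and 0, 25.2 and 0 with NaPr, a change of -52.29 ± 10.62 (limma adjusted p = 0.0213). The changes were -44.01 at IRF1 and -41.79 at NFYC, where the treated libraries had no peak. These regions at JAK1, IRF1 and NFYC met the filter only through their untreated libraries, which favoured a fall, so their calls are a description. The largest called rises were 51.71 ± 10.99 points in another JAK1 intron (chr1:64975132-64976612), and 20.93 ± 3.73 and 19.04 ± 5.14 in ERAP2, which trims peptides for class I. With NaPr, JAK1 held 1 region listed in all treated and no untreated libraries, and the rise named there may be that region. At such a region the filter fixed the direction, and a call is a description. Rises that were not called are outside this order, and some of them exceeded those in ERAP2.

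With NaBu the largest called falls were -63.90 ± 7.08 and -51.82 ± 6.24 points at neighbouring regions in a JAK1 intron, and -51.53 ± 5.17 in an intron of CANX, the gene of the chaperone calnexin. The largest called rises were 58.41 ± 4.94 in JAK1 (chr1:65036292-65037200), 45.35 ± 5.68 at chr6:32819694-32820313 in HLA-DOB, which also lies in the TAP2 window, and 44.76 ± 7.19 in ERAP1, a second peptide-trimming enzyme. HLA-DOB had 2 tested regions with NaBu, both listed only in treated libraries. JAK1, CANX and ERAP1 also held regions listed in 1 arm only, and the calls named above at these genes may be among them. At such regions the filter fixed the direction, and a call is a description. The JAK1 intron region at chr1:64975132-64976612 was called higher in both experiments, with 36.93 ± 4.63 points after NaBu. Its ranks by library are not given here, so its calls are not read as a repeated finding. IRF1 and JAK1 have wide annotated windows, since transcripts of both reach well beyond the canonical start.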

How the data were processed

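Peak lists of ATAC-seq from 12 SW480 libraries were used. Lists of the mouse line CT26 were not used here. The authors trimmed reads with cutadapt, aligned them with Bowtie2 to GRCh38 and called peaks per library, without pooling, with MACS2 in the ENCODE pipeline. The submitters' processing notes give cutadapt 1.9.1, Bowtie2 2.3.1 and MACS2 2.1.0. The deposited lists hold, for each summit, the fold enrichment over the local background (a ratio), the −log10 p and the −log10 q, and their numbering ends at 300000 summits. The study's methods give the sequencing depth only as an average over samples, and the depth of each library was not analysed here. The authors' test on reads could not be rerun from peak lists.

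Overlapping peaks of the 12 lists were merged into regions. Ranks were tested with limma 3.58.1 (lmFit, eBayes with trend) in R 4.3.3, 3 against 3 libraries per experiment. A permutation test of 3 against 3 cannot go below p = 0.1 and was not used. Ranking was tested on simulated data. Up to 0.796% of intervals were identical between replicates, so none was counted as a repeat deposit. Regions were placed on GENCODE 44. No region ran past a chromosome end of the GRCh38 genome, and the promoter sequences matched it. Named regions were each gene's start regions, every called member and the 3 largest called changes per direction among other pathway genes. The members and lists were chosen with earlier results of these data known. Alternatives are given in the closing section. One marker gene is not reported here.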

Additional observations from a re-analysis of the deposited data

How the results depend on the processing

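Depth, filters and scale limit these values. A peak under a list's own limit counts as 0, and with 3 libraries in each arm only large or steady changes pass the adjusted threshold. NaPr calls over all regions were 10555. They were 4047 when ranked by fold enrichment, 5151 with a peak in at least 1 library, 1578 on log2 fold enrichment, 18703 with 12 libraries in the fit and 0 to 3718 without 1 library. Without a treated library, 28737 to 29641 regions still had an unadjusted p under 0.05. The 5 NaPr member calls became 1, 1, 0, 9 and 0 to 1 under these settings and 9 with summit windows. Replicate numbers did not pair the libraries (correlations of same-numbered deviations from 0.00709 to 0.0463, all under 0.1). With the replicate block, 732 NaPr regions and 0 members were called, of which 16 members had an unadjusted p under 0.05, and 44899 NaBu regions and 11 members, with the TAPBP start among the calls lost (adjusted p = 0.0533). NaBu calls over all regions were 45682, and were 29190 with a peak in all 6 libraries, 23677 with the top 50000 intervals and 20724 on log2 fold enrichment, where the first 2 tested fewer regions. The 10 NaBu member calls became 6, 6 and 5 there, 20 with summit windows and 6 with 5 kb on both sides. Left-out libraries kept NaBu counts at 38558 to 44026 regions and 7 to 9 members. A −log10 q of at least 2, regions from the 6 files and ranking among own peaks (chosen after seeing the data) kept each count within 1.5 times. No called region changed sign. Of its alternatives, the 5 NaPr calls lost 57 of 82 and the 10 NaBu calls 36 of 155, of which 30 and 19 by leaving out a library. The B2M region at chr15:44727065-44727293, which met the filter with NaBu only through its treated libraries, is among these calls. The 1 NaPr and 3 NaBu regions listed only in treated libraries are counted here, although the filter fixed their direction. The cause was not tested. Sign changes occurred at regions that were not called. On the fold enrichment rank these were -1.35 (HLA-C), -0.91 (HLA-B 5′ end) and 0.90 (TAP1) with NaPr, and 1.37 (HLA-C), 2.26 (HLA-B start), -1.82 (HLA-B 5′ end, limma adjusted p = 0.0484, against 0.0463 to 0.227 over its alternatives), 2.96 (TAP1) and 1.40 (B2M) with NaBu. On log2 fold enrichment they were -0.15 (HLA-B 5′ end) and 0.16 (TAP1) with NaPr, and 0.083 (HLA-C), 0.12 (HLA-B start), -0.18 (HLA-B 5′ end), 0.14 (TAP1), 0.15 (B2M) and 0.10 (CLEC16A intron) with NaBu. Summit windows gave 0.72 (TAP1, NaPr) and 0.18 (HLA-B start, NaBu), and ranking among own peaks 0.52 (TAP1, NaPr), 0.72 (HLA-B start), 0.38 (PSMB8) and 0.12 (B2M) with NaBu. Leaving out 1 library gave ranges of -0.89 to 0.91 (HLA-C), -0.19 to 1.17 (HLA-B 5′ end) and -0.49 to 0.44 (TAP1) with NaPr, and of -1.27 to 0.23 (HLA-C), -0.45 to 0.068 (PSMB8), -0.23 to 0.29 (B2M) and -10.21 to 0.15 (CLEC16A intron) with NaBu.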
